A study of Mus musculus with 12 samples.

Results

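The 10 genes studied here brake the mitogen-activated protein (MAP) kinase pathways, and they were measured in resting and activated splenic CD4+ T cells of mice with and without the transcription factor Ikaros. They were the MAP kinase phosphatase genes Dusp1, Dusp2, Dusp4, Dusp5, Dusp6, Dusp10 and Dusp14 and the Sprouty and Spred genes Spry1, Spry2 and Spred1. The 10 genes were taken by symbol, each from the 1 array row that carries its Entrez gene identifier, out of 23185 rows paired with 1 gene. The mice were Lck-Cre-;Ikzf+/+ (Cre- below), with no Cre and intact Ikaros, or Lck-Cre+;Ikzf-/- (Cre+ below), in which the promoter of Lck, active in the T lineage, drives the Cre recombinase. Both kinds of cell were profiled at baseline (0 h) and after 24 h of activation by anti-CD3 bound to the plate and anti-CD28 in solution, with 3 arrays in each of the 4 groups and 12 arrays in all. Cre activity and the loss of Ikaros cannot be told apart, because no group had Cre together with intact Ikaros. Culture and activation cannot be told apart either, because no cells were cultured for 24 h without the antibodies. The labels used here do not state the ages of the mice or whether animals were pooled. Values are log2 expression from Mouse Gene 2.0 ST whole-transcript arrays, so a difference of 1 is a 2-fold difference, and levels of different genes are not compared because each has its own probes.

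MAP kinases carry the signal of the T cell receptor and of CD28 to the nucleus along a Ras to ERK branch and along the JNK and p38 branches. The phosphatases of the Dusp family remove the phosphates from both the threonine and the tyrosine that switch a MAP kinase on, and many are themselves induced by the kinases they turn off. Sprouty and Spred proteins act further up, at Ras and Raf, and are also induced by the pathway they restrain. In T cells these genes are known as feedback brakes that set how long a signal lasts.

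The start regions of 4 of the genes are printed here because they hold the motif matches found, or belong to the gene with the largest response to activation. Each is the 250 bases before the RefSeq transcript start in GRCm38.p6, written in the direction of transcription, and capitals mark the motif matches. Of the 10 genes, 9 had a window in the RefSeq table; Dusp4 was not matched.
Dusp5, chr19:53528895-53529144, plus strand: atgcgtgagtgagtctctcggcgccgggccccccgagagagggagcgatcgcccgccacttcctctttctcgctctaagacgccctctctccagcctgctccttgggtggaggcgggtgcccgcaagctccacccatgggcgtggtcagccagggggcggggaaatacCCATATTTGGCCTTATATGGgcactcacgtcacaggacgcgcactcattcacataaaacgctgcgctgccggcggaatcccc
Dusp1, chr17:26508473-26508722, minus strand: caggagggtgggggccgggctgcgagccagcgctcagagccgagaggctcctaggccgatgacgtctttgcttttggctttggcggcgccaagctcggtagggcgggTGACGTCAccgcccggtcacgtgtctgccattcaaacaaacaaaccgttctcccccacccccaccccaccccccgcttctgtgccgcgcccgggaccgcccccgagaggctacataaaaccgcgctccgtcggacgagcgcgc
Spry1, chr3:37639697-37639946, plus strand: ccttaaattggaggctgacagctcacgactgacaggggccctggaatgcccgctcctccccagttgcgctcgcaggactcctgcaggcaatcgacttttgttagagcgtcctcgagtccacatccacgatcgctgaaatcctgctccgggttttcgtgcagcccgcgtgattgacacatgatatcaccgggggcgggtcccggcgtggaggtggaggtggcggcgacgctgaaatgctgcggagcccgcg
Dusp2, chr2:127335909-127336158, plus strand: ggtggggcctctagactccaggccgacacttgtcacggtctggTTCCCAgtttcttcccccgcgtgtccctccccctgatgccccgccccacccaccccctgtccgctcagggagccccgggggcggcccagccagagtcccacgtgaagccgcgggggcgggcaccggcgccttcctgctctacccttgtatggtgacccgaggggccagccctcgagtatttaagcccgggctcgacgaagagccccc

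The searched motifs were AP-1 (TGANTCA), the cyclic AMP response element or CRE (TGACGTCA), ETS (CCGGAAG), Ikaros (TGGGAA), NFAT (TGGAAA) and the CArG box, the site of serum response factor, each on both strands and over windows of the same length. The capitals in Dusp5 are 2 adjoining CArG boxes, CCATATTTGG and CCTTATATGG, which begin 82 and 72 bases before the start, and 1.47% of 32851 windows in the table hold such a box. The capitals in Dusp1 are a CRE that begins 143 bases before the start, a motif held by 1.55% of windows. The capitals in Dusp2 are an Ikaros motif on the minus strand, 207 bases before the start, and 21.6% of windows hold that motif. Spry1 is in lower case because none of these letters occurred in its window. AP-1 (6.75% of windows), ETS (6.91%) and NFAT (18.6%) letters were in none of the 9 windows. A match describes the letters only, and these data hold no measure of binding at any of them.

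The label of the cells was checked against marker genes. The T cell gene Cd4 read between 10.48 and 11.60 and Cd3e between 10.15 and 11.14 on the 12 arrays, and the mean over 9 of 10 listed T cell markers was 10.49 to 10.65 at baseline and 9.92 to 10.31 after activation. Markers of other cells were also measured. The CD8 T cell genes Cd8a and Cd8b1 read between 5.24 and 6.93 and between 6.69 and 7.73 on the 12 arrays. On activation Cd8a changed by a log2 of -0.10 (Cre-) and -0.07 (Cre+), with an SE of 0.34. Cd8b1 changed by -0.23 and -0.08, with an SE of 0.24. The part of CD8 T cells in the results was not tested. The mean over 13 of 14 listed B cell markers at baseline was 8.25 to 8.50 for Cre- and 8.11 to 8.16 for Cre+ arrays, and after activation it was 5.27 to 6.60 and 5.83 to 7.29. Cd79a, a defining B cell gene, read 9.53 to 9.81 at baseline and 4.99 to 7.51 after activation. Of 13 B cell markers, 12 fell in Cre- and 9 in Cre+ cells, and 11 and 10 of 13 measured myeloid markers (14 listed) did. By the same measure (limma adjusted p under 0.05), 9.1% of all genes fell in Cre- and 10.6% in Cre+ cells. The mean of the myeloid markers was 5.77 to 6.57 at baseline and 4.23 to 4.54 after activation. Every activation comparison below runs alongside this drop, and its part in the results was not tested. In bulk samples, fewer cells of a type and less RNA per cell cannot be told apart. The array's value for Ikzf1, which encodes Ikaros, did not check the genotype labels: its baseline group mean was 10.53 (Cre-) and 10.36 (Cre+) (log2 difference -0.17, SE 0.13, limma adjusted p = 0.968), and the labels do not state where its probes lie relative to the deleted part. The activated array numbered 3 stood apart from the other two of its group in both genotypes: its mean over 28 of 29 listed cell cycle genes was 8.87 (Cre-) and 8.50 (Cre+), against 6.40 to 7.10 on the other activated arrays. Results of the 10 genes that turn on these arrays are given with and without them. Among the genes of the pathway lists the fit without them was examined for 7 only, and list counts are over all arrays.

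On activation the nuclear phosphatase genes Dusp5 and Dusp4, the Ras pathway inhibitor gene Spry1 and its relative Spred1 rose in both genotypes, while Dusp1 fell in Cre- cells and Dusp14 rose in Cre+ cells. A single limma model with a mean for each group was fitted to all 12 arrays and all 23185 genes, and a gene passed at a Benjamini-Hochberg adjusted p under 0.05. In Cre- cells 5 of the 10 genes passed, 4 higher and 1 lower, where 18.5% of all genes tested passed (9.39% higher and 9.1% lower). In Cre+ cells 5 of 10 passed, all higher, where 20.7% of all genes passed (10.1% higher and 10.6% lower). Baseline and activated arrays did not overlap for 6 of the 10 genes in Cre- cells, where this held for 35.1% of all genes, and for 7 in Cre+ cells (36.7% of all genes). An unadjusted p under 0.05 was reached by 6 of 10 in each genotype, where 29.7% of all genes in Cre- and 31.2% in Cre+ cells did. The median log2 change of the 10 genes was 0.56 in Cre- and 0.81 in Cre+ cells, beside 0.00 and -0.02 for all genes. Nothing in the labels says that the arrays of a group came from separate mice, so these p-values measure the spread between samples, which may be technical.

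**Figure D1:**
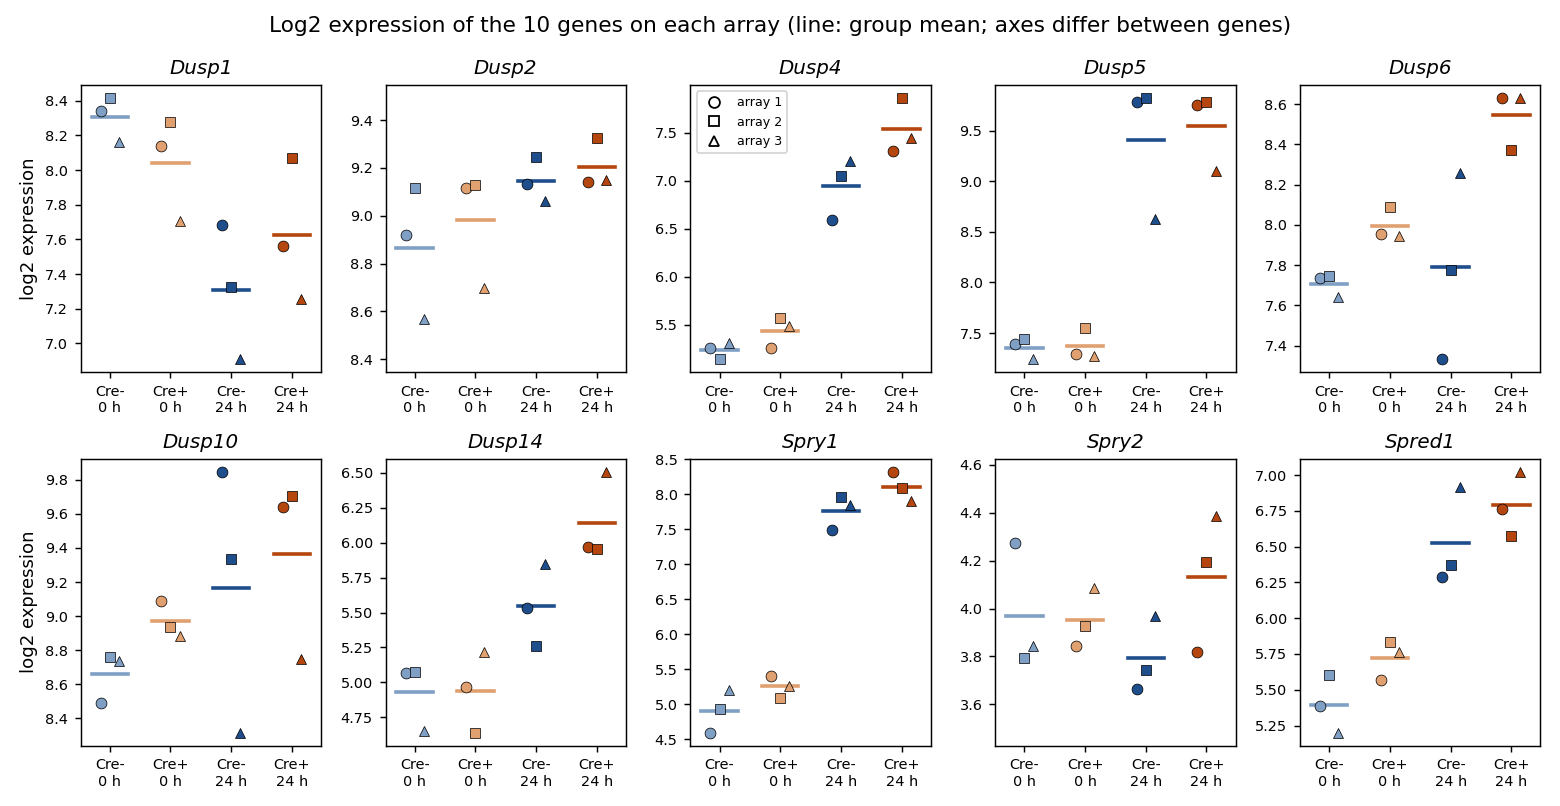
Log2 expression of the 10 genes (vertical axes, which differ between genes) on each of the 12 arrays, by genotype and time; points are arrays, with a marker shape for each array number, and lines are group means. The activated values of Dusp4, Dusp5, Spry1 and Spred1 lie above all baseline values, while those of Spry2 overlap them.

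Spry1 (Entrez gene 24063, chromosome 3) changed the most of the 10 genes in both genotypes. Its protein, Sprouty1, is a membrane-associated inhibitor of Ras to ERK signalling. The values at baseline were 4.59, 4.93 and 5.20 in Cre- cells and 5.41, 5.09 and 5.26 in Cre+ cells. After activation they were 7.50, 7.95 and 7.84 in Cre- cells and 8.32, 8.09 and 7.90 in Cre+ cells. All 6 activated values lay above all 6 baseline values. The log2 change was 2.86 (SE 0.18, 7.24-fold, limma adjusted p = 1.6e-06) in Cre- cells and 2.85 (SE 0.18, 7.20-fold, adjusted p = 1.6e-06) in Cre+ cells. The genotypes' changes differed by -0.01, with a 95% interval of -0.56 to 0.54. Spry2 (24064, chromosome 14), its relative, did not pass: its 12 values lay between 3.66 and 4.39, and the baseline and activated ranges overlapped in both genotypes. Its log2 change was -0.18 (SE 0.17, adjusted p = 0.564) in Cre- cells and 0.18 (SE 0.17, adjusted p = 0.536) in Cre+ cells. The array medians, over all genes, were 4.04 to 4.17.

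Spred1 (114715, chromosome 2) binds neurofibromin, the Ras GTPase-activating protein encoded by Nf1, and brings it to Ras at the membrane. It read 5.39, 5.60 and 5.20 in Cre- cells at baseline and 6.29, 6.37 and 6.92 after activation. In Cre+ cells it read 5.57, 5.83 and 5.77 at baseline and 6.77, 6.57 and 7.02 after activation. Activated arrays were above baseline arrays throughout, and the genotypes overlapped at each time. Spred1 rose by a log2 of 1.13 (SE 0.18, 2.19-fold, limma adjusted p = 0.00126) in Cre- cells and 1.07 (SE 0.18, 2.09-fold, adjusted p = 0.00167) in Cre+ cells.

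Dusp5 (240672, chromosome 19) and Dusp4 (319520, chromosome 8) encode inducible nuclear phosphatases; that of Dusp5 acts on ERK, and that of Dusp4 on ERK and JNK. Dusp5, the gene with the paired CArG boxes, read 7.39, 7.44 and 7.24 at baseline and 9.79, 9.82 and 8.62 after activation in Cre- cells. In Cre+ cells it read 7.29, 7.55 and 7.28 at baseline and 9.75, 9.79 and 9.10 after activation. The groups did not overlap across time, and within each activated group the array numbered 3 was the lowest. The log2 change was 2.06 (SE 0.28, 4.16-fold, limma adjusted p = 0.00051) in Cre- and 2.17 (SE 0.28, 4.51-fold, adjusted p = 0.000325) in Cre+ cells, and 2.45 and 2.40 without the activated arrays numbered 3. Dusp4 read 5.25, 5.14 and 5.31 at baseline and 6.59, 7.05 and 7.21 after activation in Cre- cells. In Cre+ cells its values were 5.25, 5.57 and 5.49 at baseline and 7.31, 7.86 and 7.44 after activation. Here too activated and baseline arrays were fully apart, and all Cre+ activated arrays were above all Cre- activated arrays. Dusp4 rose by a log2 of 1.71 (SE 0.18, 3.28-fold, adjusted p = 7.0e-05) in Cre- and 2.10 (SE 0.18, 4.28-fold, adjusted p = 1.4e-05) in Cre+ cells. The difference between these changes was 0.38, with a 95% interval of -0.17 to 0.93.

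Dusp1 (19252, chromosome 17) moved the other way in Cre- cells. It encodes an immediate-early nuclear phosphatase that acts mainly on p38 and JNK. Baseline values were 8.34, 8.42 and 8.16 in Cre- cells and 8.14, 8.28 and 7.71 in Cre+ cells. Activated values were 7.68, 7.32 and 6.91 in Cre- cells and 7.56, 8.07 and 7.25 in Cre+ cells. The Cre- groups were apart, the Cre+ groups overlapped, and array 3 was the lowest of every group. Dusp1 fell by 1.00 on the log2 scale in Cre- cells (SE 0.23, 2.00-fold lower, limma adjusted p = 0.0116). In Cre+ cells the change was -0.41 (SE 0.23, 95% interval -0.93 to 0.10, adjusted p = 0.269), and it passed with array weights (-0.48, adjusted p = 0.0347). The genotypes' changes differed by 0.59 (SE 0.33, 95% interval -0.14 to 1.31, adjusted p = 1.00), so the pass in Cre- cells alone is not shown to be a difference between genotypes. Hspa1a, a heat shock gene of the list of genes that respond to cell handling, was also lowest on array 3 of every group, at 4.61, 4.11, 5.93 and 5.16 against 6.28 to 8.73 on the other arrays. Hspa1a was picked from the 16 genes of that list after its values were seen. The mean of the list was also lowest on array 3 of every group, at 7.10, 7.07, 7.31 and 7.40. Not all its genes went this way: Hspa8 was highest on array 3 of both activated groups (12.41 and 12.48). The part of these genes in the Dusp1 values was not tested. Dusp2 (13537, chromosome 2), a nuclear phosphatase of activated immune cells, read 8.92, 9.12 and 8.57 in resting Cre- cells and 9.12, 9.13 and 8.70 in resting Cre+ cells. After activation it was at 9.13, 9.25 and 9.06 and at 9.14, 9.33 and 9.15. The activated values were close together; all 3 lay above the baseline values in Cre+ cells, while in Cre- cells the lowest of them was below the highest baseline value. The log2 change of 0.28 in Cre- cells (SE 0.16, 95% interval -0.06 to 0.62) and of 0.22 in Cre+ cells (SE 0.16, 95% interval -0.12 to 0.56) did not pass in either genotype (limma adjusted p = 0.270 and 0.379).

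**Figure D2:**
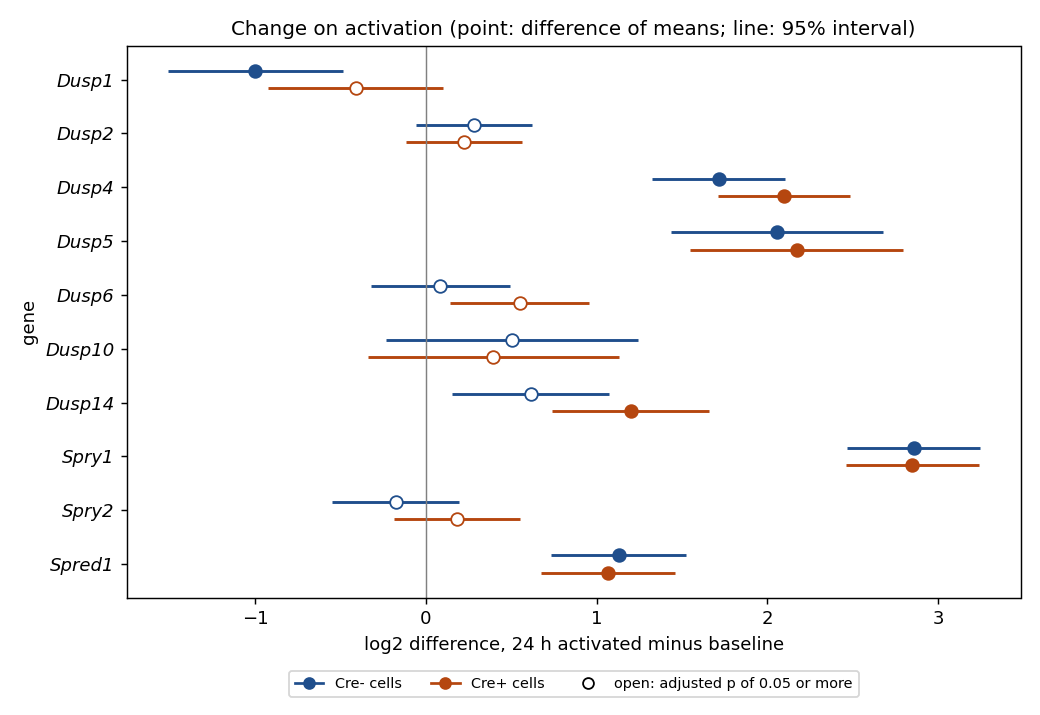
Log2 difference between activated and baseline cells (horizontal axis) for each gene, in Cre- and Cre+ cells; points are differences of group means, lines 95% intervals from limma, and filled points passed at an adjusted p under 0.05. Spry1 lies farthest to the right, at 2.86 and 2.85, and Dusp1 is the only gene left of 0 in both genotypes.

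Dusp6 (67603, chromosome 10) encodes a cytoplasmic phosphatase that acts on ERK. It read 7.74, 7.75 and 7.64 in Cre- cells at baseline and 7.33, 7.78 and 8.26 after activation. In Cre+ cells it read 7.96, 8.09 and 7.94 at baseline and 8.63, 8.37 and 8.63 after activation. The Cre- activated arrays spread to both sides of their baseline, while all Cre+ activated arrays were above theirs. The change was 0.08 in Cre- cells (SE 0.19, 95% interval -0.32 to 0.49, limma adjusted p = 0.838) and 0.55 in Cre+ cells (SE 0.19, 95% interval 0.14 to 0.96, adjusted p = 0.0573). The Cre+ change lay close to the threshold, and it passed without the activated arrays numbered 3 (0.51, adjusted p = 0.0279), without Cre- activated array 1 (0.55, adjusted p = 0.0149), without Cre- activated array 3 (0.55, adjusted p = 0.00800) and without Cre+ activated array 2 (0.64, adjusted p = 0.0477). It also passed with array weights (0.61, adjusted p = 0.00153), with median centring (0.61, adjusted p = 0.0489), among genes with a mean of at least 5 (adjusted p = 0.0348) and with only the arrays compared (adjusted p = 0.0167).

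Dusp10 (63953, chromosome 1) encodes a phosphatase of JNK and p38, and Dusp14 (56405, chromosome 11) a small phosphatase that binds the tail of CD28. Dusp10 read 8.49, 8.76 and 8.74 at baseline and 9.85, 9.33 and 8.32 after activation in Cre- cells. In Cre+ cells it read 9.09, 8.94 and 8.88 at baseline and 9.64, 9.71 and 8.75 after activation. In both genotypes activated arrays 1 and 2 were above baseline and array 3 was below it. Over all arrays its change did not pass, at 0.50 (SE 0.34, limma adjusted p = 0.375) in Cre- and 0.40 (SE 0.34, adjusted p = 0.489) in Cre+ cells. Without the activated arrays numbered 3 it passed in both, at 0.93 (adjusted p = 0.00216) and 0.70 (adjusted p = 0.00829), and without Cre- activated array 3 alone it passed in Cre- cells (0.93, adjusted p = 0.0335). With array weights it also passed in both, at 0.74 (adjusted p = 0.0208) and 0.58 (adjusted p = 0.0431). Dusp14 read 5.07, 5.07 and 4.65 at baseline and 5.53, 5.26 and 5.85 after activation in Cre- cells. In Cre+ cells its values were 4.97, 4.64 and 5.22 at baseline and 5.97, 5.95 and 6.51 after activation. Activated arrays were above baseline arrays in both genotypes. Dusp14 rose by a log2 of 1.20 (SE 0.21, 2.30-fold, adjusted p = 0.00208) in Cre+ cells. In Cre- cells the change was 0.61 (SE 0.21, 95% interval 0.16 to 1.07, adjusted p = 0.0642), and it passed without Cre- activated array 2 (0.76, adjusted p = 0.0430) and without Cre+ activated array 3 (0.61, adjusted p = 0.0421). It also passed with median centring (0.70, adjusted p = 0.0386), with quantile normalization (0.66, adjusted p = 0.0475) and among genes with a mean of at least 5 (adjusted p = 0.0388).

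Whether the response to activation differed between genotypes was tested directly. None of the 10 genes passed, where 0.00863% of all genes did (2 genes), and none of the 10 had an unadjusted p under 0.05, where 4.7% of all genes did (limma). The largest differences, Cre+ minus Cre-, were 0.59 for Dusp1, 0.58 for Dusp14 (SE 0.30, 95% interval -0.07 to 1.23) and 0.47 for Dusp6 (SE 0.26, 95% interval -0.11 to 1.04), each with an adjusted p of 1.00. Dusp14, like Dusp1, passed in a single genotype without being shown to differ between them. The changes of Spry1, Spred1, Dusp2, Dusp5 and Dusp10 differed by between -0.11 and 0.12. With arrays left out these values moved, to -0.53 for Dusp10 and -0.28 for Dusp5 without Cre- activated array 3 and to 0.34 for Dusp5 without Cre+ activated array 3.

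Between the genotypes at baseline, none of the 10 genes passed, where 0.552% of all genes tested did, and none had an unadjusted p under 0.05, where 6.93% of all genes did (limma). Log2 differences, Cre+ minus Cre-, ran from -0.27 for Dusp1 to 0.35 for Spry1 (SE 0.18, adjusted p = 0.796), and 8 of 10 were above 0, where 50.5% of all genes were. That count was 5 of 10 without Cre- baseline array 3 and 7 to 9 of 10 without any other array. Dusp6 (0.29, SE 0.19, adjusted p = 0.912) and Dusp10 (0.31, SE 0.34, adjusted p = 1.00) had all 3 Cre+ values above all 3 Cre- values, as 8.82% of all genes did. For Dusp6 the ranges were 7.94 to 8.09 against 7.64 to 7.75. The remaining 8 genes overlapped between genotypes. The median difference of the 10 genes was 0.16, beside 0.00 for all genes. Of the 13 myeloid markers 1 passed here, Itgam, with means of 8.49 in Cre+ and 5.77 in Cre- cells. Only 5 of the 13, Itgam among them, had a difference above 0, and the median of the 13 was -0.02. Of the 13 B cell markers 0 passed and 0 were above 0 (median -0.16). The part of these markers in the values of the 10 genes was not tested.

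After activation all 10 genes had a higher mean in Cre+ than in Cre- cells, where 46.3% of all genes did, but none passed over all arrays, where 0.729% of all genes did (limma). An unadjusted p under 0.05 was reached by 3 of 10 (Dusp4, Dusp6 and Dusp14), where 7.51% of all genes did. In the same 3 genes the Cre+ arrays all lay above the Cre- arrays, as they did in 5.25% of all genes. Dusp6 differed most, by 0.75 (SE 0.19, 95% interval 0.35 to 1.16, adjusted p = 0.130), with Cre+ values of 8.37 to 8.63 against 7.33 to 8.26. Dusp4 differed by 0.59 (SE 0.18, 95% interval 0.20 to 0.98, adjusted p = 0.257) and Dusp14 by 0.59 (SE 0.21, 95% interval 0.13 to 1.05, adjusted p = 0.410). The remaining 7 differed by 0.06 to 0.34 with overlapping groups. The median of the 10 was 0.33, beside -0.01 for all genes. Other lists leaned the same way in activated cells, with none of their genes passing. Differences were above 0 for 13 of 13 B cell markers (median 0.70), 12 of 13 myeloid markers (0.08) and 4 of 4 NK cell markers (0.26). The same held for 2 of 2 CD8 T cell markers (0.30) and 14 of 16 genes that respond to cell handling (0.20). The mean of the handling list was 7.07 to 7.75 on the Cre- and 7.40 to 8.10 on the Cre+ activated arrays, that of the NK cell markers 3.87 to 4.32 and 4.18 to 4.80, and that of the myeloid markers 4.23 to 4.37 and 4.42 to 4.54. Of the NK cell markers Eomes differed most between genotypes (1.48, SE 0.47). It rose on activation in Cre+ cells (2.57), where Ncr1 and Klrb1c fell (-1.21 and -0.99). Some handling genes, Egr1 and Junb among them, are also on the list of ERK-responsive genes described below, so these lists are not separate measures. Atf3 and Nr4a1, also handling genes, rose on activation (2.66 and 2.18 in Cre- cells). The part of these lists in the results was not tested.

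Whether the Dusp6 difference after activation passed depended on which arrays were used. Without Cre- activated array 3, whose value of 8.26 was the highest of its group, the difference was 0.99 (limma adjusted p = 0.00600) and passed, and without both activated arrays numbered 3 it was 0.95 (adjusted p = 0.0180). It also passed with array weights, which give less weight to arrays that stand apart (0.90, adjusted p = 0.000537), and it did not with only the arrays compared (adjusted p = 0.634). The higher mean in Cre+ cells held for 8 of 10 genes without Cre- activated array 3, for 9 without both arrays numbered 3, for 9 without Cre+ activated array 2 and for 8 with array weights. Dusp10 was at -0.22 without Cre- activated array 3, against 0.20 over all arrays. Neither Dusp4 nor Dusp14 passed without both arrays numbered 3, at 0.76 (adjusted p = 0.151) and 0.56 (adjusted p = 0.357).

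**Figure D3:**
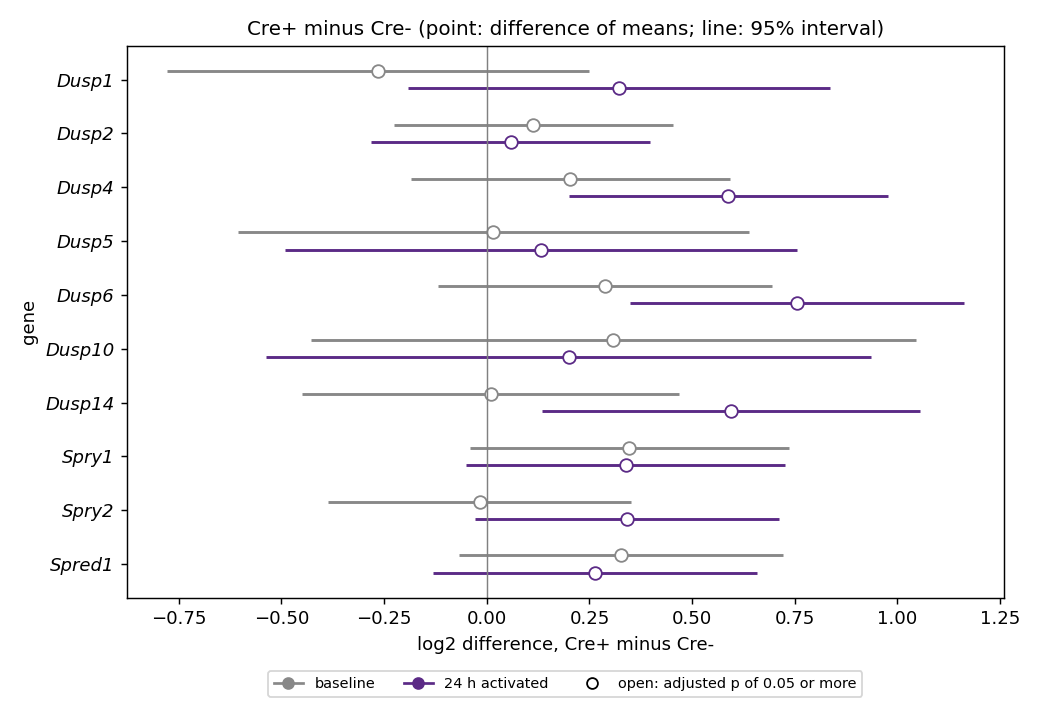
Log2 difference between Cre+ and Cre- cells (horizontal axis) for each gene, at baseline and after 24 h of activation; points are differences of group means and lines 95% intervals from limma. No gene passed at an adjusted p under 0.05, and Dusp6 after activation lies farthest to the right, at 0.75.

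In both genotypes the activated array numbered 3 stood apart from the other two for several of the genes. Against their mean, Dusp10 on array 3 stood at -1.27 (Cre-) and -0.93 (Cre+) log2 units, Dusp5 at -1.18 and -0.67, and Dusp1 at -0.59 and -0.56. Dusp6 stood higher, by 0.70 and 0.13, Spred1 by 0.59 and 0.35, Dusp14 by 0.45 and 0.55 and Spry2 by 0.26 and 0.38. Dusp1, Dusp2, Dusp5 and Dusp6 were the lowest on array 3 of both baseline groups. They stood there at -0.21 and -0.50 (Dusp1), -0.45 and -0.42 (Dusp2), -0.17 and -0.14 (Dusp5) and -0.10 and -0.08 (Dusp6). The cell cycle mean of baseline array 3 was 6.28 (Cre-) and 6.44 (Cre+), beside 6.26 to 6.49 on the other baseline arrays. On the activated arrays Spry1 (0.12 and -0.31) and Dusp4 (0.39 and -0.14) went both ways. With 1 such array in each genotype there is no test. No call of activation in the 10 genes was lost without these arrays: Dusp10 was added in Cre- cells, and Dusp6 and Dusp10 in Cre+ cells.

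**Figure D4:**
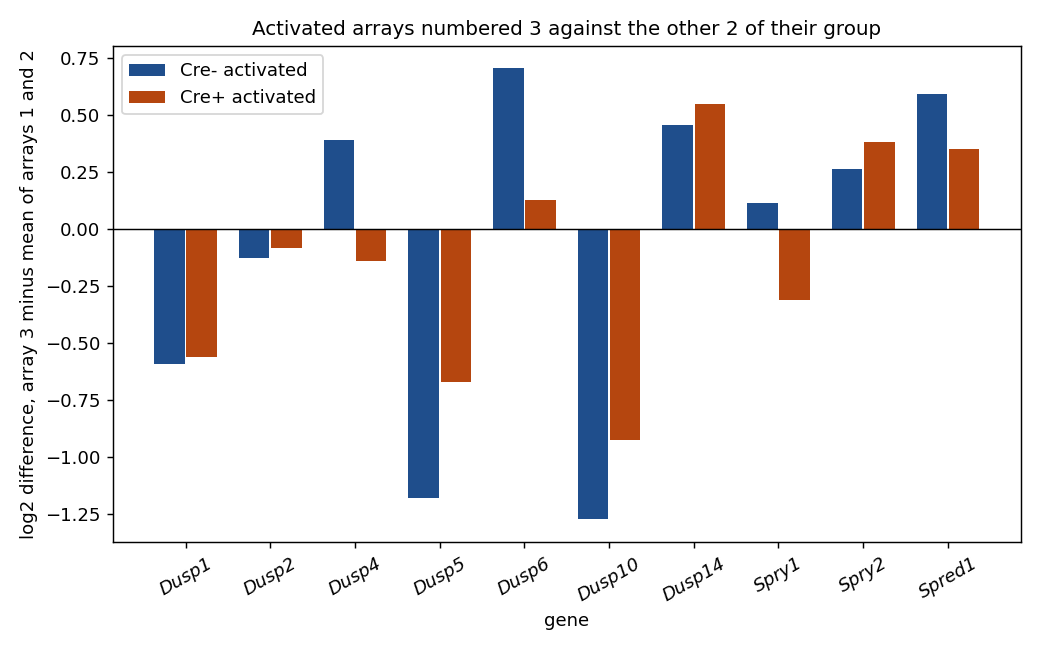
Log2 value of the activated array numbered 3 minus the mean of arrays 1 and 2 of its group (vertical axis), for each gene in Cre- and Cre+ cells. Dusp10, Dusp5, Dusp1 and Dusp2 lie below 0 in both genotypes, and Dusp6, Dusp14, Spry2 and Spred1 lie above 0 in both.

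The other genes of the pathway were taken from lists, in the same limma model. Of the 4 other MAP kinase phosphatases, 1 rose and 1 fell on activation in each genotype. Among all genes 18.5% passed in Cre- and 20.7% in Cre+ cells. Dusp16, a phosphatase of JNK and p38, rose by a log2 of 0.91 (adjusted p = 0.00108) in Cre- and 1.31 (adjusted p = 8.0e-05) in Cre+ cells, and it kept this call in all 21 alternative settings in both. Dusp7, a cytoplasmic relative of Dusp6, fell by 0.65 (adjusted p = 0.00334) and 0.77 (adjusted p = 0.00114) on the log2 scale, also in all 21 settings. Of 13 other genes of the small dual-specificity phosphatase family none passed in Cre- cells, with 4 at an unadjusted p under 0.05 beside 29.7% of all genes. In Cre+ cells Dusp3 (0.91) and Styx (0.44) rose and Dusp23 fell (-0.76). Dusp3 was also the only gene of this list to pass between genotypes, with activated means of 4.27 in Cre+ and 3.08 in Cre- cells (1.18, SE 0.22, adjusted p = 0.0279), and it did not pass in 12 of 20 alternative settings, among them the fit without the activated arrays numbered 3 (adjusted p up to 0.379 over the settings). Of the 3 measured among the 4 other Sprouty and Spred genes, Spry4 rose in Cre- cells (0.47, adjusted p = 0.0149), a call lost without Cre- baseline array 1 (adjusted p = 0.0681), and none passed in Cre+ cells, where none had an unadjusted p under 0.05 beside 31.2% of all genes.

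Of the kinases these genes restrain, most did not pass. The counts of this paragraph stand beside 18.5% of all genes passing in Cre- cells (9.39% higher and 9.1% lower). In Cre+ cells 20.7% of all genes passed (10.1% higher and 10.6% lower). In the Ras to ERK cascade, 11 of 17 listed genes were measured: the scaffold Ksr1 rose (0.58 in Cre- and 0.61 in Cre+ cells), and the kinases Rps6ka3 (-0.51 in both) and Araf (-0.28 and -0.36) fell. In the JNK and p38 cascades, 16 of 17 were measured, and 3 rose and 3 fell in Cre- cells and 4 and 4 in Cre+ cells. The activators of p38 moved in opposite directions: Map2k3 rose by a log2 of 1.25 and 1.37, and Map2k6 fell by 1.75 and 2.42. Mapkapk2, a kinase activated by p38, rose by 0.97 and 1.09. Among 16 genes known to respond to ERK, 8 rose and 2 fell in Cre- cells and 8 rose and 1 fell in Cre+ cells, with a median change of 0.40 and 0.43. The factors Egr2 (1.90 and 1.47) and Egr3 (1.56 and 1.25) rose in both. Of 18 other brakes on Ras and receptor signalling, 3 rose and 5 fell in each genotype, with medians of -0.25 and -0.27. Rasal3, a Ras GTPase-activating protein gene, fell by 0.99 in Cre- cells (adjusted p = 0.00737). In Cre+ cells its change was -1.18, the lowest of the list. Errfi1, an inhibitor of receptor tyrosine kinases, rose by 0.84 and 0.97, and Ptpn2, a tyrosine phosphatase, by 0.52 and 0.63.

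Between genotypes, none of the genes on the Ras to ERK, JNK and p38 and other Sprouty and Spred lists passed at either time. Of all genes, 0.552% passed at baseline and 0.729% after activation. At baseline 3 of 11, 1 of 16 and 0 of 3 of their measured genes had an unadjusted p under 0.05 (limma), where 6.93% of all genes did. After activation 2 of 11, 5 of 16 and 0 of 3 did, where 7.51% of all genes did. Nf1, the partner of Spred1, was higher in Cre+ cells. Resting Cre+ arrays read 7.68, 7.30 and 7.62 and resting Cre- arrays 6.75, 6.57 and 6.69, and after activation 7.84, 7.93 and 7.74 against 6.97, 7.01 and 6.55. The genotypes did not overlap at either time. The log2 difference was 0.86 (SE 0.14, limma adjusted p = 0.0221) at baseline and 0.99 (SE 0.14, adjusted p = 0.00705) after activation. The call at baseline was lost in 5 of 21 alternative settings, each of which left out 1 of the 6 baseline arrays, with values no lower than 0.79 and adjusted p up to 0.123, and the activated call was lost with only the arrays compared (adjusted p = 0.157). Ier3, an ERK-responsive gene, was between 6.28 and 7.03 in Cre+ and between 4.27 and 4.69 in Cre- cells after activation (2.24, SE 0.21, adjusted p = 0.000561). That call was lost in 1 of 20 alternative settings, with only the arrays compared (adjusted p = 0.0705). Phlda1, also ERK-responsive, differed at baseline (0.96, SE 0.15, adjusted p = 0.0144), a call lost in 5 of 21 settings that each left out 1 baseline array (adjusted p up to 0.0815). These 3 genes were examined further after their values were seen.

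**Figure D5:**
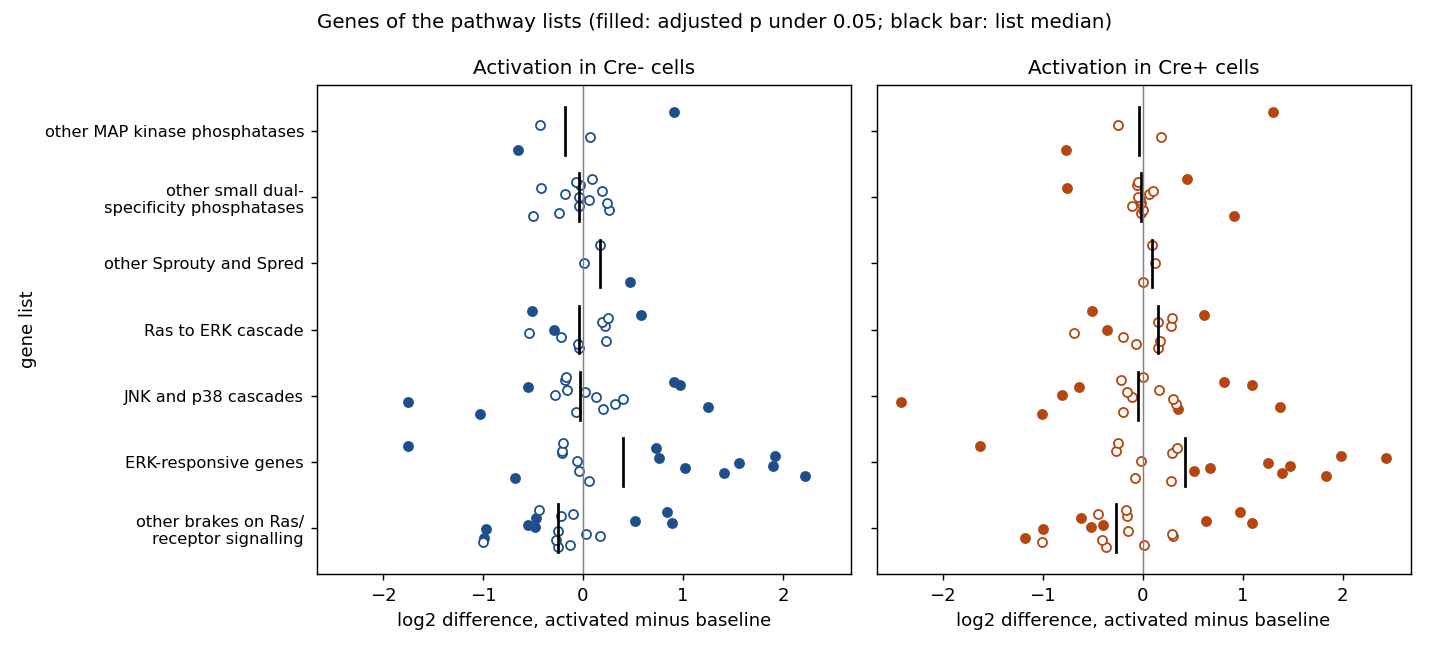
Log2 difference between activated and baseline cells (horizontal axis) for the measured genes of 7 pathway lists, in Cre- (left) and Cre+ cells (right); points are genes, filled where the adjusted p was under 0.05, and black bars are list medians. The ERK-responsive list has the highest median, 0.40 and 0.43, and the other lists have medians between -0.27 and 0.17.

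The pattern of each gene over the 12 arrays was set beside that of 3111 genes whose SD over the arrays was at least 0.5. As these arrays share 2 time points and 4 groups, the correlations describe mostly the change on activation, and they carry no test. Spry1 was nearest to Tnfrsf4, a costimulatory receptor of activated T cells (Pearson r = 0.99), and to Pomt2 (0.99). Dusp4 was nearest to the metallothionein genes Mt2 (0.99) and Mt1 (0.98). Dusp5 was nearest to the kinase gene Pim1 (0.99) and the amino acid transporter subunit gene Slc3a2 (0.99), and Spred1 to Abhd17c (0.98) and Ranbp1 (0.98). Dusp14 was nearest to Rab34 (0.96) and Otulin (0.95), Dusp6 to Slc15a3 (0.93) and Cdc42bpa (0.92), Dusp1 to Ppm1k (0.92) and Izumo4 (0.92), and Dusp10 to Tnfrsf23 (0.90) and Trib3 (0.90). Dusp2 and Spry2 had the loosest matches, Hsp90aa1 (0.81) and Slc39a4 (0.78) for Dusp2 and Pcdha9 (0.72) and Carmil1 (0.69) for Spry2. Hsp90aa1 is also on the handling list, and its values of 2.86 to 4.63 were low, beside array medians of 4.04 to 4.17.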

How the data were processed

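The authors deposited 1 table of log2 expression values for 12 Mouse Gene 2.0 ST arrays, made with RMA (affy 1.36.1, R 2.15.1, per the submitters' processing notes), so background correction and normalization across arrays were already done. The chip definition file is not given in the sources used here. Of 25206 rows, 23185 were paired with 1 gene and tested, and 2021 were not paired with exactly 1 gene. Groups came from the labels. A limma 3.58.1 model (R 4.3.3) with 1 mean per group, 8 residual and 3.55 prior degrees of freedom and no covariates gave 5 comparisons; p-values were two-sided and adjusted by Benjamini-Hochberg over the genes tested, without a fold minimum. SE are the model's. The precision is limited by the number of arrays. The genes and lists were chosen with earlier results of these data known. All 10 genes were named at any value; from each pathway list up to 3 genes that passed with the smallest adjusted p could be named in a comparison, or, with fewer than 2 passing, the 2 of smallest p. Hspa1a, Hspa8 and the Rasal3 value for activation in Cre+ cells stand outside this rule and were given after values were seen. Lists are described by counts, medians and array means only. Alternatives were array weights, a replicate block, robust moderation with a variance trend, median centring, quantile normalization, a mean of at least 5, all rows, only the arrays compared, both activated arrays numbered 3 left out and each array left out in turn. The same settings for 7 genes of the pathway lists were added after their values were seen.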

Additional observations from a re-analysis of the deposited data

How the results depend on the processing

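Over 21 alternative settings (20 for the difference of responses), no call among the 10 genes was lost and no called gene reversed: of 1035 values, 1011 stayed on their side of the threshold and 24 newly passed. Same-numbered arrays did not all deviate together in any pair of groups; the closest were the activated groups, where their deviations correlated at -0.05, 0.57 and 0.73 for numbers 1, 2 and 3 and 2 of 3 arrays matched their own number best, so the numbers were not taken as pairs. The replicate block left the counts of the 10 genes as they were and moved the difference of responses from 2 to 5 of all genes tested. With array weights, 3 of the 10 genes passed between activated genotypes (Dusp6, Dusp14 and Spred1) and 8 in Cre+ activation, against 0 and 5. All-gene counts then were 321 at baseline (128 in the reported fit), 2416 between activated genotypes (1204 higher and 1212 lower, against 146 and 23), 8292 in Cre+ activation (4795) and 143 for the difference. With a mean of at least 5, 83 genes passed at baseline and 0 for the difference, and Spry2 was not tested. With only the arrays compared, 251 passed at baseline and 9 between activated genotypes. Without both activated arrays numbered 3, 266 passed at baseline and 11 for the difference, and 1 of the 10 genes (Dusp6) between activated genotypes. Leaving out each array in turn gave 0 to 1 of the 10 genes between activated genotypes, 5 to 6 in each activation and 0 at baseline and for the difference. For all genes it gave 50 to 199 at baseline (highest without Cre- activated array 3, and 50 to 60 without any 1 baseline array), 72 to 283 between activated genotypes (lowest when Cre+ activated array 1 was left out, 93, 82 and 283 when Cre- activated array 1, 2 or 3 was), 2877 to 4718 in Cre- activation, 3148 to 5922 in Cre+ activation (3148 and 3175 without Cre+ activated arrays 1 and 3) and 2 to 25 for the difference (25, 5 and 8 when Cre+ activated array 2, Cre+ activated array 3 or Cre- activated array 3 was left out). The cause of these shifts was not tested.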
